A study of Rhodotorula toruloides with 2 samples.

Results

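The 7 genes described here are annotated as enzymes of the glyoxylate cycle, of gluconeogenesis or of acetyl-unit metabolism in the oleaginous yeast Rhodotorula toruloides. They are 3 genes described as isocitrate lyase (RHTO_05768, RHTO_03507 and RHTO_05767), 1 malate synthase (RHTO_01459), 1 phosphoenolpyruvate carboxykinase (RHTO_07480), 1 carnitine acetyltransferase (RHTO_01903) and 1 acetyl-CoA hydrolase (RHTO_07106). They were chosen by identifier, after the KEGG and best BLAST descriptions in the authors' table, and all 7 were found among its 1402 genes. The study grew the wild-type strain AS 2.1389 in chemostats under limiting or replete inorganic phosphate (Pi) and sequenced total RNA from 1 culture sample per condition. A chemostat is a continuous culture of constant volume, here 2.0 litre. There were thus 2 libraries and no replicates, so cultures of 1 condition cannot be compared with each other and no difference below has a test or replicate check.

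The glyoxylate cycle is a shortcut through the citric acid cycle that spares both decarboxylation steps, so that acetyl units from acetate, ethanol or fatty acids can be kept as carbon for synthesis. Isocitrate lyase splits isocitrate into succinate and glyoxylate, and malate synthase joins the glyoxylate with another acetyl-CoA to give malate. Phosphoenolpyruvate carboxykinase then commits oxaloacetate to gluconeogenesis. Carnitine acetyltransferase passes acetyl units between coenzyme A and carnitine, and carriers can move the acetylcarnitine between compartments. The acetyl-CoA hydrolase of Saccharomyces cerevisiae, Ach1, is a mitochondrial enzyme of acetate metabolism that can pass coenzyme A from succinyl-CoA to acetate. In fungi the isocitrate lyase, malate synthase and carboxykinase genes are typically repressed by glucose and expressed on carbon sources such as acetate and fatty acids.

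The labels need a caution before any direction is read. The table's own column header calls the library labelled Pi-limited a control. A sodium:Pi symporter (RHTO_01284), of a kind of transporter that fungi are known to induce when Pi is short, had 22 counts there and 5797 with the Pi-replete label, a 275-fold difference (95% interval 182 to 440). Directions below follow the labels as they stand. The table also holds only genes that passed the authors' thresholds, at least a 2-fold difference and their false discovery rate (FDR). It therefore lists 1402 of 7970 tested genes (17.6%), a number worked out from the deposited p-values and FDRs. Each of the 7 genes had to differ to be listed, so that they differ is no finding. The library totals were 5892590 counts (Pi-limited label) and 5641377 counts (Pi-replete label).

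All but 1 of the genes had more transcript under the Pi-replete label. The short isocitrate lyase gene RHTO_05767 had less. The 6 of 7 stand beside 41.7% of all listed genes with that direction, and the 1 of 7 beside 58.3%. At least a 4-fold difference towards the Pi-replete label was found for 4 of the 7 (RHTO_05768, RHTO_01459, RHTO_03507 and RHTO_07480), against 19.8% of the listed genes. With equal totals over the listed genes, which move each log2 ratio by 0.31, this count was 2. Centring on the median of the listed genes moves each ratio by -1.10, which made the count 6 and left RHTO_05767 at a log2 ratio of 0.51. None of the 7 was at least 4-fold higher under the Pi-limited label, as 14.1% of listed genes were. The median log2 ratio of RPKM (reads relative to gene length and sequencing depth), Pi-limited label over Pi-replete label, was -2.07 for the 7 genes and 1.10 for all listed genes. The latter lies at the edge of the gap left by the 2-fold threshold and says little more than which direction most listed genes had. Since the genes were picked with results of these libraries known, these shares describe the 7 genes and are no evidence about the pathway. In RNA from a whole culture, a difference in all cells and a larger one in a fraction of them cannot be told apart.

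**Figure D1:**
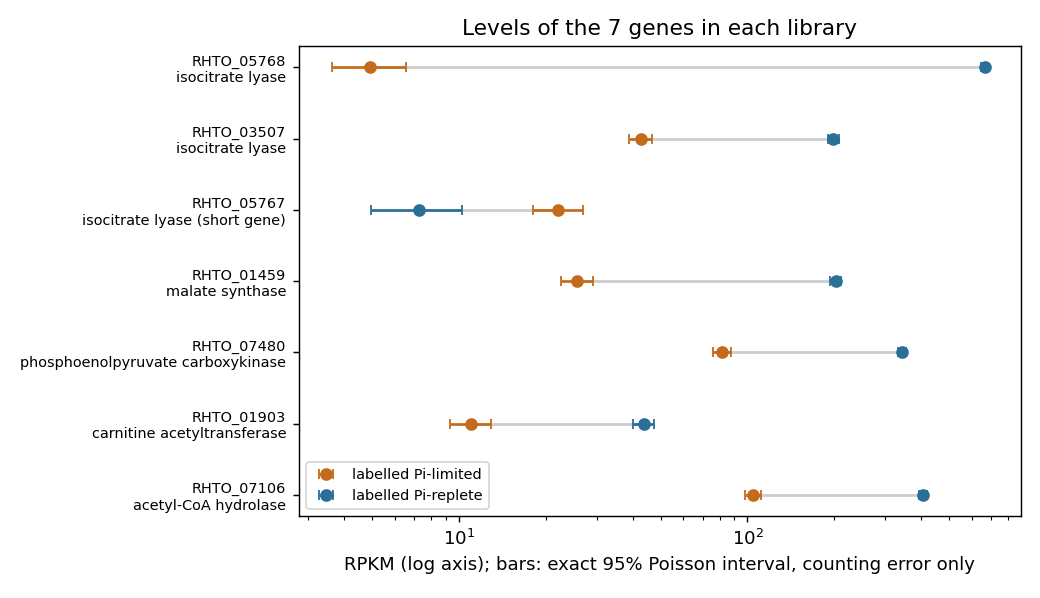
Level of each of the 7 genes in RPKM (log axis), orange for the library labelled Pi-limited and blue for that labelled Pi-replete, with bars for the exact 95% Poisson interval of the count. The 2 points of RHTO_05768 lie 135-fold apart, those of the other genes between 3.05- and 7.87-fold, and RHTO_05767 alone has its orange point on the right.

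The isocitrate lyase gene RHTO_05768 differed most. It had 47 counts under the Pi-limited label (exact 95% Poisson interval 34.5 to 62.5) and 6064 under the Pi-replete label (5912 to 6219), or 4.92 and 663.5 RPKM. Its level was 135-fold higher under the Pi-replete label (101 to 184, an exact interval for counting error only, as are all intervals of folds here). Among the 1402 listed genes its RPKM ranked 1176th with the Pi-limited label and 33rd with the Pi-replete label. By size of the log2 ratio it stood 15th of the 585 genes higher under the Pi-replete label. The authors' deposited gene ontology columns place its product in the microbody, the peroxisome-like compartment that houses glyoxylate enzymes in many fungi.

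RHTO_03507, the other longer isocitrate lyase gene, ranked 413th by RPKM among the 1402 listed genes in the library with the lower level. Its 453 counts with the Pi-limited label corresponded to 42.6 RPKM, and its 2019 counts with the Pi-replete label to 198.5 RPKM. The fold was 4.66 (4.20 to 5.17). It is also described as isocitrate lyase by KEGG, with a deposited length of 1803 bases against 1620 for RHTO_05768. Fungi are known to have, beside isocitrate lyase proper, the related methylisocitrate lyase of propionate breakdown, and the descriptions alone do not say which activity either protein has.

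The balance between these isocitrate lyase genes was therefore inverted from one library to the other. Per length, RHTO_05768 stood at 0.115 times the level of RHTO_03507 with the Pi-limited label and at 3.34 times that level with the Pi-replete label. The ratio moved 28.9-fold (21.3 to 40.1), which a common scaling of either library cannot alter. Of the RPKM summed over all 3 isocitrate lyase genes, RHTO_05768 made up 7.07% under the Pi-limited label and 76.3% under the Pi-replete label. RHTO_03507 went from 61.2% to 22.8% of that sum although its own level was higher in the second library. The sum was 69.7 RPKM against 869.3 RPKM. RHTO_05767, whose value is uncertain (below), made up 31.7% of the first sum and 0.833% of the second. The shares under the Pi-limited label therefore depend on it.

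**Figure D2:**
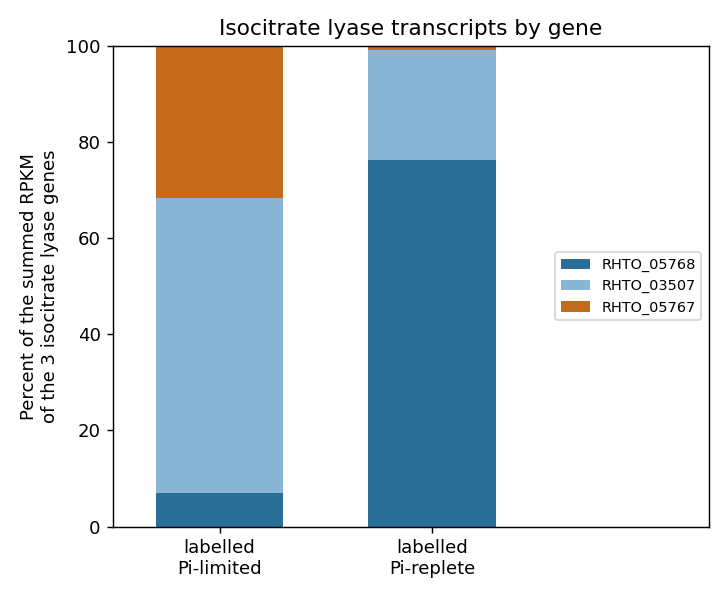
Percent of the summed RPKM of the 3 genes described as isocitrate lyase that each gene contributes in each library (stacked bars from 0 to 100%). RHTO_05768 accounts for 7.07% of the left bar (Pi-limited label) and 76.3% of the right bar (Pi-replete label).

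The short gene RHTO_05767 lies directly beside RHTO_05768 in the gene order of the related strain NP11 (assembly RHOziaDV1.0). It had 102 counts with the Pi-limited label (Poisson interval 83.2 to 123.8) and 32 with the Pi-replete label (21.9 to 45.2), or 22.1 and 7.24 RPKM. It was 3.05-fold higher under the Pi-limited label (2.03 to 4.69), the only one of the 7 with this direction. Its deposited length of 783 bases is 48.3% of that of its neighbour. Its best BLAST hit is the same Rhodotorula glutinis protein, and it has no KEGG description. The ratio of RHTO_05768 to RHTO_05767 per length was 0.223 in one library and 91.6 in the other, a 411-fold shift (245 to 693). Sequences were not compared and the counting's use of strand is unknown here, so whether the pair share reads was not tested and the value of RHTO_05767 is uncertain. The gene on the other side of RHTO_05768, described as a phospholipase D (RHTO_05769), is also listed, with 511 and 1047 counts, 2.14-fold higher under the Pi-replete label (1.92 to 2.38).

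Malate synthase (RHTO_01459) shared the direction of both longer isocitrate lyase genes. It had 247 counts (25.7 RPKM) with the Pi-limited label and 1860 counts (202.4 RPKM) with the Pi-replete label, 7.87-fold more (6.88 to 9.02). This fold lay above that of RHTO_03507 by a factor of 1.69 (1.43 to 2.01) and below that of RHTO_05768 by a factor of 17.1 (12.4 to 24.0). With the Pi-replete label, malate synthase and RHTO_03507 had overlapping Poisson intervals in RPKM (193.3 to 211.8 and 189.9 to 207.3). All 3 isocitrate lyase genes together had 2.71 times the RPKM of malate synthase with the Pi-limited label and 4.29 times with the Pi-replete label. The first of these ratios depends on the uncertain RHTO_05767, which was 31.7% of that sum. The deposited gene ontology term of malate synthase is the peroxisome.

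Phosphoenolpyruvate carboxykinase, carnitine acetyltransferase and acetyl-CoA hydrolase differed by nearly the same factor. The carboxykinase RHTO_07480, described by KEGG as the ATP-using form, had 807 and 3249 counts (81.7 and 343.4 RPKM), a fold of 4.21 (3.89 to 4.55) towards the Pi-replete label. The acetyltransferase RHTO_01903 had 147 and 558 counts (11.0 and 43.7 RPKM), a fold of 3.96 (3.30 to 4.79). A further pair described by KEGG as carnitine acetyltransferase had smaller folds, 2.72 for RHTO_01064 and 2.07 for RHTO_01341 (below). The hydrolase RHTO_07106 had 994 and 3682 counts (104.7 and 405.1 RPKM), a fold of 3.87 (3.61 to 4.15).

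The folds of RHTO_07480, RHTO_01903 and RHTO_07106 could not be told apart by counting error. That of the carboxykinase was 1.09 times that of the hydrolase (0.978 to 1.21) and 1.06 times that of the acetyltransferase (0.864 to 1.30). That of the hydrolase was 0.976 times that of the acetyltransferase (0.797 to 1.19). RHTO_03507 could not be told apart from the carboxykinase either, with a fold 1.11 times as large (0.973 to 1.26), whereas malate synthase stood 1.87 times above the carboxykinase (1.60 to 2.19). Differences of the size that these intervals span are not excluded.

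The order of levels changed between the libraries mainly through RHTO_05768. From the highest to the lowest RPKM, the order with the Pi-limited label was acetyl-CoA hydrolase, carboxykinase, RHTO_03507, malate synthase, RHTO_05767, acetyltransferase and RHTO_05768. Only malate synthase (22.6 to 29.1) and RHTO_05767 (18.0 to 26.8) were neighbours with overlapping intervals there. With the Pi-replete label, RHTO_05768 came first, ahead of the hydrolase, the carboxykinase, malate synthase, RHTO_03507, the acetyltransferase and RHTO_05767. All 7 genes together took 0.0475% of the counts with the Pi-limited label (exact binomial 95% interval 0.0457 to 0.0493) and 0.310% with the Pi-replete label (0.305 to 0.314). RHTO_05768 supplied 1.68% of the 7 genes' counts in the first and 34.7% in the second. Without it, the summed counts still differed 4.33-fold (4.15 to 4.52), against 6.52-fold with it (6.27 to 6.79).

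**Figure D3:**
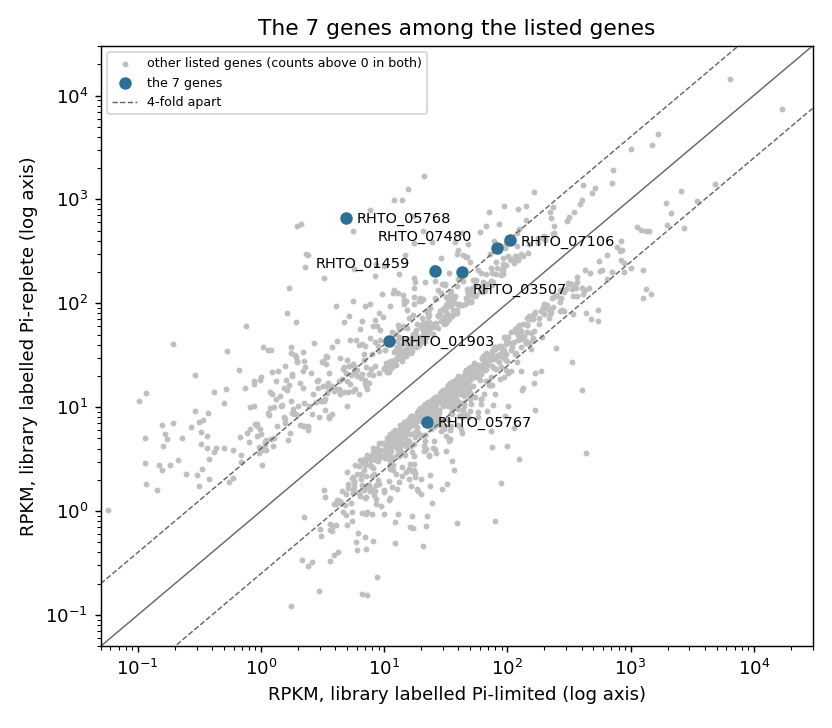
RPKM of each listed gene with counts above 0 in both libraries, with the Pi-limited label on the x axis and the Pi-replete label on the y axis (both log axes), with the 7 genes in blue. The solid line marks equal levels, the dashed lines a 4-fold difference, and the empty band along the diagonal is the authors' 2-fold threshold. RHTO_05768 lies far above the upper dashed line at 4.92 and 663.5 RPKM.

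By its measured value, no member lay at the edge of the authors' thresholds. The table starts at a 2-fold difference, and the smallest absolute log2 ratio among the 7 was 1.61, for RHTO_05767. The counting interval of that gene did reach down to 2.03-fold, just above the threshold. In the authors' deposited table the FDR of RHTO_05767 was 1.18e-08, that of RHTO_01903 was 4.02e-60, that of RHTO_03507 was 2.39e-248, and the other 4 genes were listed at an FDR of 0. Those values compare this pair of libraries and not the conditions.

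The enzymes that meet the glyoxylate cycle at isocitrate and citrate went both ways. The NADP-dependent isocitrate dehydrogenase (RHTO_04315), which competes with isocitrate lyase for its substrate, had 3231 and 6696 counts, 2.16-fold higher under the Pi-replete label (2.08 to 2.26). The summed isocitrate lyase RPKM was 0.199 times that of this dehydrogenase with the Pi-limited label and 1.15 times with the Pi-replete label. The sum includes RHTO_05767, whose value is uncertain and which weighs mainly on the ratio with the Pi-limited label. A citrate synthase with a peroxisomal best hit (RHTO_07345) had the other direction, with 500 and 210 counts (57.8 and 25.4 RPKM). Malic enzyme (RHTO_03795), which turns malate into pyruvate, was 3.62-fold (3.30 to 3.99) higher under the Pi-replete label. Of the 4 genes matched as citric acid cycle, 2 were higher and 2 lower with the Pi-limited label, and 1 of the higher ones was ATP-citrate lyase, matched by its name in BLAST.

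Other enzymes that make or use acetyl units also went both ways. ATP-citrate lyase (RHTO_03915), which makes cytosolic acetyl-CoA from citrate, had 13087 counts (644.3 RPKM) with the Pi-limited label and 3342 counts (171.9 RPKM) with the Pi-replete label. The RPKM ratio of acetyl-CoA hydrolase to ATP-citrate lyase was 0.163 in the first library and 2.36 in the second, a 14.5-fold shift (13.4 to 15.7). For carnitine acetyltransferase over ATP-citrate lyase the shift was 14.9-fold (12.3 to 18.0). A pair of genes described as thiolases, enzymes that can release acetyl-CoA in beta-oxidation, had the direction of the hydrolase. RHTO_00476 was 3.22-fold (2.88 to 3.60) and RHTO_02848 was 2.27-fold (2.04 to 2.52) higher under the Pi-replete label. KEGG also describes RHTO_00476 as acetyl-CoA C-acetyltransferase, so its part in beta-oxidation is uncertain.

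Genes with carnitine in their description were mixed. A further pair described by KEGG as carnitine acetyltransferase was higher under the Pi-replete label, RHTO_01064 by 2.72-fold (2.47 to 3.00) and RHTO_01341 by 2.07-fold (1.76 to 2.44). The best BLAST hit of RHTO_01064 is a nucleolar GTP-binding protein, so its description is uncertain. The 3 listed genes described as mitochondrial carnitine carriers, which exchange acylcarnitine for carnitine across the inner membrane, did not share a direction. RHTO_06483 had 223 counts with the Pi-limited label and 31 with the Pi-replete label, and RHTO_05662 had 158 and 73. RHTO_04922 had 474 and 953.

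To glycolysis, which runs against gluconeogenesis, 5 listed genes matched by wording. The 2 described as glycolytic enzymes were both higher under the Pi-replete label, as was the carboxykinase. The 3 higher under the Pi-limited label are described as other enzymes. Phosphofructokinase (RHTO_00494), the enzyme that commits sugar to glycolysis, had 3109 and 6048 counts, 2.03-fold higher under the Pi-replete label (1.95 to 2.12). The carboxykinase differed more, and its RPKM went from 0.405 to 0.838 times that of phosphofructokinase, a 2.07-fold shift (1.89 to 2.26). A gene described as phosphoglycerate mutase (RHTO_07535) was 2.74-fold (2.20 to 3.43) higher there too. The E2 component of pyruvate dehydrogenase (RHTO_01754), which makes mitochondrial acetyl-CoA from pyruvate, had 2281 and 767 counts and so the other direction. The remaining matches were a threonine aldolase (RHTO_04824, 135 and 63 counts) and a branched-chain oxoacid dehydrogenase subunit by KEGG (RHTO_03059, 118 and 33 counts), neither a glycolytic enzyme by KEGG.

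No other listed gene matched gluconeogenesis and anaplerosis, and the sole further match to the glyoxylate words was 2-isopropylmalate synthase (RHTO_03109), an enzyme of leucine synthesis that matched by wording, with 5614 and 13349 counts. A gene described as propionyl-CoA synthetase and also as a quinone reductase (RHTO_02519) had 139 and 29 counts. Of 22 genes matched to beta-oxidation and the peroxisome, 14 were higher under the Pi-replete label and 8 under the Pi-limited label. Of the 14, 7 are described both as peroxin-3 and as a major facilitator transporter, among them the 3 with the largest ratios at 50 or more counts, RHTO_07802 (1 and 112 counts), RHTO_00587 (19 and 185) and RHTO_06269 (11 and 87). Another 4 of the 22 are peroxide enzymes, all higher under the Pi-limited label. Of the 11 left, 7 were higher under the Pi-replete label and 4 under the Pi-limited label. The 7 are described as peroxisomal fatty acid importers, acyl-CoA, glutaryl-CoA or hydroxyacyl-CoA dehydrogenases, and an oxidoreductase. By first KEGG description, the 4 are an enoyl-CoA hydratase, a ubiquitin-conjugating enzyme, an acylglycerone phosphate reductase and a hydroxyprostaglandin dehydrogenase. Only the hydratase among these 4 is first described as an enzyme of beta-oxidation. Over all the lists, 40 genes other than the 7 matched, 24 of them higher under the Pi-replete label and 16 under the Pi-limited label. Of all listed genes, 41.7% and 58.3% had these directions. Both counts hold doubtful matches. Among them are the 7 genes described as peroxin-3 and transporter in the 24, and the 4 peroxide enzymes in the 16. Equal totals left 13 of the 24 at 2-fold or more, and centring 4 of the 16. The median log2 ratio of the 40 (Pi-limited over Pi-replete label) was -1.09, beside 1.10 for all listed genes. Both lie at the edges of the gap below 2-fold, so they restate which direction had more genes and are not typical sizes of a difference.

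**Figure D4:**
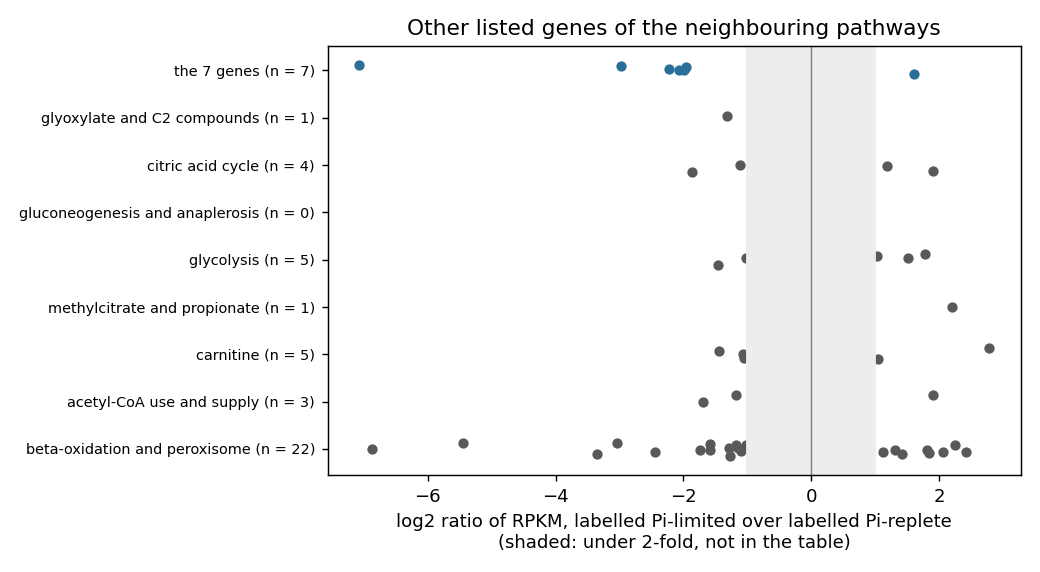
The log2 ratio of RPKM (library labelled Pi-limited over library labelled Pi-replete) of the 7 genes (blue) and of the other listed genes matched to each pathway (grey points, scattered vertically for legibility). The shaded band holds no points because the authors left out genes below 2-fold, and each pathway with at least 3 other genes has points on both sides of it.

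Likeness of pattern can be measured over 2 libraries only as closeness of the log2 ratio. Among described genes with 100 or more counts in either library, the 3 nearest to RHTO_05768 were a serine/arginine repetitive matrix protein (RHTO_02382, 12 and 1391 counts, 0.15 away), RHTO_07802 (0.20 away) and an ATP-binding cassette protein (RHTO_05699, 98 and 9567 counts, 0.40 away). Nearest to malate synthase were a pair of genes with a proteophosphoglycan best hit (RHTO_01222, 0.014 away, and RHTO_06626, 0.041 away) and a copper amine oxidase (RHTO_06618, 0.017 away). In the NP11 gene order, 2 of the 12 flanking genes of the 7 are listed, RHTO_05769 and a protein kinase gene beside the carboxykinase (RHTO_07481, 12 and 40 counts, 3.48-fold higher under the Pi-replete label, 1.79 to 7.29).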

How the data were processed

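The authors deposited 1 table for both libraries, with whole-number counts and RPKM of each library, the log2 ratio of RPKM, a p-value and an FDR, per the file headers. The submitters' processing notes name Cufflinks and DESeq and give neither a role. Aligner, genome build and use of strand: not given in the sources used here. Dividing each count by its length and RPKM recovered 1 library total per library. With 1 library per condition no test was made. Folds are of counts per library total, with exact 95% intervals (Clopper-Pearson, from the conditional binomial of both counts), and a ratio of folds has the exact conditional odds-ratio interval (scipy 1.17.1). Intervals were tested on data simulated with counting error alone and no variation between cultures. The intervals cover counting error only. Deposited lengths of all 7 genes were multiples of 3, as coding lengths are, but their header says only gene length. All 1402 identifiers matched the RefSeq gene table of strain NP11, used for gene order only. Protein and promoter sequences were not used here.

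The 7 genes, the 8 word lists searched in the KEGG and BLAST descriptions and the settings tried were chosen with earlier results of these data known. Named genes were the 7, all others of a list with up to 5, and otherwise the 3 with the largest ratio and at least 50 counts. Genes nearest in log2 ratio and flanking genes were added for likeness and position. The symporter RHTO_01284 was chosen by hand outside these rules, as a check of the labels. Other phosphate transporter genes are not described here. The settings tried were equal totals over listed genes, median centring, log2 of RPKM plus 1, a minimum of 100 counts, an FDR of at most 1e-10, and KEGG or BLAST text alone.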

Additional observations from a re-analysis of the deposited data

How the results depend on the processing

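No paired analysis was possible because each condition has 1 library. Setting both totals over listed genes equal moved each log2 ratio (Pi-limited over Pi-replete label) by 0.31, and centring on their median by -1.10. That median is set by the gap that the authors' 2-fold threshold leaves, so centring describes the table and not the libraries. With centring, the log2 ratio was -8.17 for RHTO_05768, -3.32 for RHTO_03507, 0.51 for RHTO_05767, -4.07 for RHTO_01459, -3.17 for RHTO_07480, -3.09 for RHTO_01903 and -3.05 for RHTO_07106. With equal totals it was -1.91 for RHTO_03507, -2.67 for RHTO_01459, -1.76 for RHTO_07480, -1.68 for RHTO_01903 and -1.64 for RHTO_07106, and the remaining pair stayed within their counting intervals, as did all 7 with 1 added to each RPKM. None of these 3 settings turned a direction.

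The 6 genes at least 2-fold higher under the Pi-replete label numbered 6 in every setting tried, while the 1 with the other direction became 0 with centring and 0 at an FDR of at most 1e-10. The 4 genes at least 4-fold higher under the Pi-replete label became 2 with equal totals and 6 with centring. Of the related genes, 13 in place of 24 were at least 2-fold higher under the Pi-replete label with equal totals, and 4 in place of 16 under the Pi-limited label with centring. BLAST text alone left 4 and 6. Without division by length, the ratio of RHTO_05768 to RHTO_03507 under the Pi-replete label was 3.00. As a share of the listed genes' counts, the 7 genes took 0.357% under the Pi-limited label and 1.88% under the Pi-replete label. Depth limits RHTO_05768 and RHTO_05767 most, at 47 and 32 counts in their lower library.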
